A study of Mus musculus with 12 samples.

Results

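Trimethylation of histone H3 at lysine 4 (H3K4me3) was examined at 10 genes of the circadian clock, Clock, Arntl, Per1, Per2, Per3, Cry1, Cry2, Nr1d1, Nr1d2 and Dbp, in nuclei of adult mouse cardiomyocytes (CMs). All peaks whose assigned gene is one of these 10 were taken, which gave 11 of 15848 peaks, 1 for each of 9 genes and 2 for Nr1d2. H3K4me3 was measured by sequencing DNA bound to the modified histone after immunoprecipitation of chromatin (ChIP–seq) in 3 libraries from CtrlCre mice (αMHC-Cre pos/+;Cpt1b +/+) and 3 from Cpt1bcKO mice (αMHC-Cre pos/+;Cpt1b fl/fl). Both genotypes therefore carry the Cre recombinase, driven by the promoter of a cardiac myosin heavy chain and so active in CMs and not in the other cells of the heart, and only the second carries floxed alleles of Cpt1b, which codes for the muscle enzyme needed to bring long-chain fatty acids into mitochondria. Cpt1b is lost in these mice before birth, so adult values follow a long absence of the enzyme. The labels give the age only as adult and do not give sex, and nuclei were sorted by flow cytometry with an antibody to PCM1, a protein at the nuclear surface of CMs. Mice were kept on a regular light and dark cycle, and the hour at which each heart was taken is not given in the sources used here. The labels do not say whether each library came from 1 mouse, so p-values measure the spread between these libraries only. The comparison asks whether promoter H3K4me3 at the clock genes differs once CMs cannot burn long-chain fatty acids, and how far libraries of 1 genotype differ from each other at these genes.

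The clock is a loop of transcription and repression that runs in nearly every cell, CMs included. CLOCK and ARNTL (also called BMAL1) bind E-boxes as a pair and switch on the Per and Cry genes, whose proteins return to the nucleus and block that pair. The same pair switches on Nr1d1 and Nr1d2, which code for REV-ERB repressors that act on Arntl through ROR elements, and Dbp, which codes for an activator of genes with D-boxes. In heart the clock is known for daily rhythms in metabolism, ion channels and contraction, and H3K4me3 at promoters of clock targets is known to follow the time of day in some tissues.

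Total counts in peaks lay between 763133 in CtrlCre replicate 2 and 2766416 in Cpt1bcKO replicate 2, a 3.63-fold range, and the correlation of log2 values between libraries lay between 0.914 and 0.967. Values are normalized counts per peak, that is, the authors' counts scaled for library depth. All 8 CM marker genes looked for had peaks. Blood and immune markers had none among 4 genes, and only 1 of 6 fibroblast, 1 of 5 endothelial and 2 of 4 mural markers had a peak. The Cpt1b peak read 428, 407 and 436 in CtrlCre and 572, 689 and 568 in Cpt1bcKO, but the floxed exons 10 and 11 lie outside it, so it does not check the deletion. The Y-linked gene Ddx3y read 115 in CtrlCre replicate 3, 106 in Cpt1bcKO replicate 3 and 0 in the other libraries, so that 1 library of each genotype differed in this respect from the rest.

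Promoter sequences are shown for Per1 and Per3, whose values differed widely within genotypes, and for Nr1d1, whose values hardly differed. Arntl is shown too, as it differed little and answers to the opposite arm of the loop. Each sequence is a 300-base RefSeq window on GRCm38.p6, from 250 bases before the start of transcription to 50 after it. It is written 5′ to 3′ on the strand of the gene. The windows are chr11:69098699-69098998 on the plus strand for Per1, chr4:151044616-151044915 on the minus strand for Per3, chr11:98775328-98775627 on the minus strand for Nr1d1 and chr7:113207261-113207560 on the plus strand for Arntl. Clock and Nr1d2, whose values also differed widely, are not shown, and their windows held no clock motif. Per1 and Arntl each have a further window, without a motif, that is not shown. Capitals mark the clock motifs found on either strand: in Per1 an E-box and then a D-box, in Per3 a pair of D-boxes, in Nr1d1 an E-prime box read on the opposite strand, and in Arntl a ROR element.
Per1: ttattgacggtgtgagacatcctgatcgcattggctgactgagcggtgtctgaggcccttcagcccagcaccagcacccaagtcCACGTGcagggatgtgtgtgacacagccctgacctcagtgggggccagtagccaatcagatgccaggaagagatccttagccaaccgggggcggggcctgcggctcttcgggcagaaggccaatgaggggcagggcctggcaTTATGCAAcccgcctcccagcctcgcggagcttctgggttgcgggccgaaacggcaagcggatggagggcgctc
Per3: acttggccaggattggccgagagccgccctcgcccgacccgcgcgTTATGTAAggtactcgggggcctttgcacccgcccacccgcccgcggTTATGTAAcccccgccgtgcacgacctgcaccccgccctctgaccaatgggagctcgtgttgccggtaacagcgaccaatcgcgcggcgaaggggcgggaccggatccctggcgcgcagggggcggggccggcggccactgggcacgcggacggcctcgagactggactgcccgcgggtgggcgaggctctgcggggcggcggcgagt
Nr1d1: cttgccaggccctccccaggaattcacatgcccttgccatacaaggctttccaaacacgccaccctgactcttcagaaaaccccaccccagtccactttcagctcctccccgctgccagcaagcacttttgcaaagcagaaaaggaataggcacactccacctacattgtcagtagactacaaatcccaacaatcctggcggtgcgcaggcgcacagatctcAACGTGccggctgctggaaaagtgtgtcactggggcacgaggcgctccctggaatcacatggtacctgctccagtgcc
Arntl: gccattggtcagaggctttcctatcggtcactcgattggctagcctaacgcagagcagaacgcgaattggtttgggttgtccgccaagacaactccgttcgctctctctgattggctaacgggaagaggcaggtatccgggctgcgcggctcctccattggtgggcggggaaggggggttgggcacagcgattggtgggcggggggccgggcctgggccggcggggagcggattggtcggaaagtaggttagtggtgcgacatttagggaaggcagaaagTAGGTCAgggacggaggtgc

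The motifs searched were the E-box CACGTG, found in 7.15% of all 32851 RefSeq promoter windows of this length, the E-prime box CACGTT (4.68%), the D-box TTATGTAA or TTATGCAA (1.66%), the ROR element TAGGTCA or TGGGTCA (6.45%) and the cAMP response element TGACGTCA (1.79%). None of these overlaps another in the windows shown. Of the 10 genes, 9 had at least 1 window, 13 windows in all; Per2 had none. An E-box was present in 2 genes, at -166 bases from the start in Per1 and at -60 in Cry1. An E-prime box was present in 3 genes, at -79 in Cry1, -166 in Cry2 and -28 in Nr1d1. D-boxes were found in 2 genes, at -24 in Per1 and at -205 and -158 in Per3. The ROR element of Arntl lay 31 bases after the start. Clock, Nr1d2 and Dbp held none of these letters in their windows, and none of the 9 genes held the cAMP response element. No relation between motifs and H3K4me3 was tested.

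Of the 11 peaks, 10 covered an annotated start of their gene. The exception was the second Nr1d2 peak (chr14:18233442-18235117), which lay wholly in an intron, from 4010 to 5685 bases after the start. Peaks of most genes reached from somewhat before the start to about the same distance or further into the gene. Measured from the first annotated start, the Per1 peak (chr11:69095188-69100703) was different. It began 29 bases before that start and ran 5486 bases past it over all 6 annotated starts of the gene. Of its length, 92.5% lay in introns and 7.02% in exons. Another annotated start lies 3731 bases after the first, within the Per1 window shown, and the peak reaches to both sides of it. Per1, Dbp (5217 bases, over 5 annotated starts), Nr1d1 (4410 bases), Nr1d2 (2831 bases) and Cry1 (2558 bases) had peaks above the 75th percentile of width over tested peaks, which is 2222 bases. The Per1 peak, of 5515 bases, was wider than 97.4% of tested peaks. Some peaks also cover a neighbour: that of Clock covers Gm7467, that of Per3 covers Camta1 and that of Dbp covers Car11, and reads there cannot be assigned to 1 gene.

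**Figure D1:**
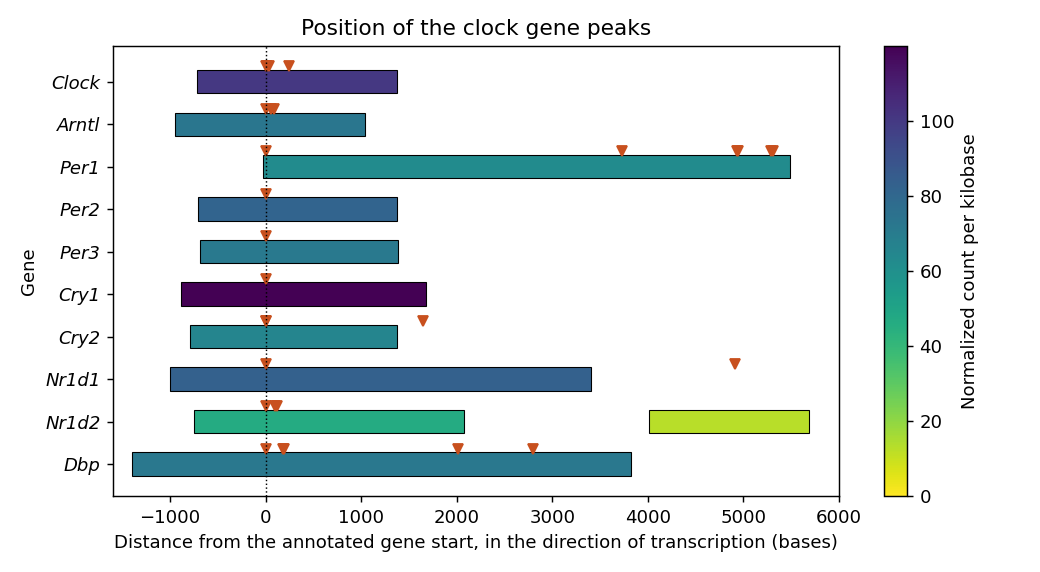
Extent of each clock gene peak, in bases from the annotated gene start along the direction of transcription, with shade for the mean normalized count per kilobase over the 6 libraries and triangles for annotated transcript starts in the plotted span. Measured from the first annotated start, the Per1 peak runs almost wholly into the gene, and Nr1d2 has a second, paler peak downstream.

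Per kilobase of peak, the mean level over 6 libraries was highest at Cry1, with 120 normalized counts per kilobase, followed by Clock (100.4), Nr1d1 (83.0), Per2 (81.7), Arntl (73.1), Dbp (71.7), Per3 (71.6), Cry2 (65.5), Per1 (62.8) and Nr1d2 (46.6), while the second Nr1d2 peak had 13.0. The median over all tested peaks was 60.5 normalized counts per kilobase. The ranges over libraries overlapped for every pair of neighbours in this order except the 2 Nr1d2 peaks. Cry1 was above Clock, and Per1 above Nr1d2, in 6 of 6 libraries, whereas Per2 was above Arntl, Arntl above Dbp and Dbp above Per3 in 3 of 6, so the middle of the order was not resolved.

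H3K4me3 at the clock genes did not differ detectably between the genotypes. None of the 11 peaks passed an adjusted p of 0.05 in limma, on the log2 values or on recovered counts, beside 2.93% of all 15039 tested peaks, and Dbp alone had an unadjusted p under 0.05, beside 12.8% of all tested peaks in either direction, 6.98% in the lower and 5.84% in the higher direction. The values of the genotypes overlapped at all 11 peaks, while they did not overlap at 16.3% of tested peaks. Mean log2 values were higher in Cpt1bcKO at 4 peaks and lower at 7, with a median log2 difference of -0.01 beside 0.01 over all tested peaks. The median absolute difference was 0.05 on the log2 scale, beside 0.14 over all tested peaks. What stood out was the spread within genotypes, which was wide for the Per genes, Clock and Nr1d2 and narrow for Nr1d1. Of the 11 peaks, 6 had a residual SD at least 1.5 times that which limma gives for their level, beside 10.1% of tested peaks. The same threshold was reached by 5 of 9 CM marker peaks and 4 of 7 peaks of clock output genes in heart. Wide spread was thus not particular to the clock genes.

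**Figure D2:**
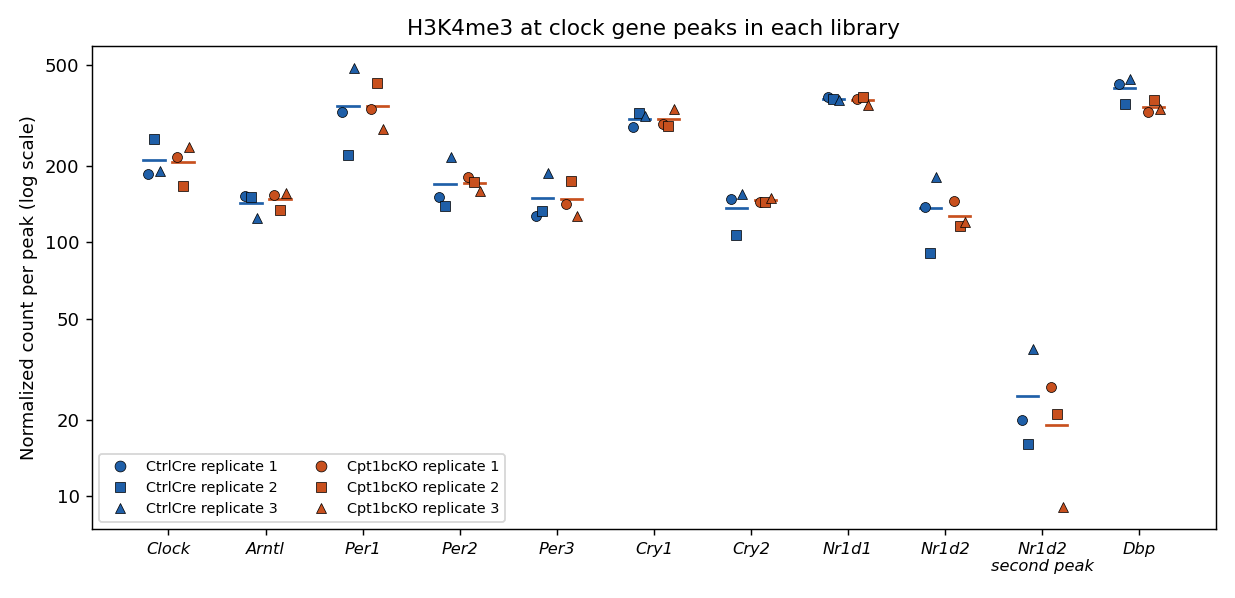
Normalized count per peak on a log scale for each clock gene peak, with 1 point per library and a bar for the mean of the 3 libraries of a genotype. The genotypes overlap at every peak, Per1 runs from 221 to 488 within CtrlCre, and Nr1d1 stays between 347 and 375 in all 6 libraries.

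Clock and Arntl code for the activating pair. At Clock (chr5:76303422-76305506) the libraries read 186, 256 and 192 in CtrlCre and 217, 167 and 238 in Cpt1bcKO. The highest and the lowest of the 6 values thus came from different genotypes, and the means were 211 ± 38.8 (SD, n = 3) and 207 ± 36.5. The log2 difference, Cpt1bcKO minus CtrlCre, was -0.03 (standard error (SE) 0.13, adjusted p = 0.970). At Arntl (chr7:113206517-113208508), the obligate partner of CLOCK, values were 153, 151 and 125 in CtrlCre and 154, 134 and 156 in Cpt1bcKO. One library of each genotype was lower than its fellows, and 4 of the 6 values lay between 151 and 156. The log2 difference was 0.05 (SE 0.12, adjusted p = 0.923), with a 95% interval from -0.19 to 0.30, so differences within that range cannot be told from none.

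The Per genes code for the repressors that pair with the CRY proteins, and Per1 showed the widest spread of the promoter peaks. At Per1 the libraries read 328, 221 and 488 in CtrlCre and 336, 424 and 280 in Cpt1bcKO. CtrlCre alone ran from the lowest to the highest of all 6 values, and the values of Cpt1bcKO all lay inside that range. The means were 346 ± 134 and 347 ± 72.6, and the log2 difference was 0.06 (SE 0.18, adjusted p = 0.951, 95% interval -0.32 to 0.43). That difference turned with single control libraries: without CtrlCre replicate 3 it was 0.34 (unadjusted p = 0.0360, adjusted p = 0.330), and without CtrlCre replicate 2 it was -0.23 (adjusted p = 0.608).

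Per2 (chr1:91457948-91460033) read 151, 139 and 218 in CtrlCre and 181, 173 and 160 in Cpt1bcKO. As at Per1, CtrlCre replicate 3 was highest of all libraries and CtrlCre replicate 2 lowest. The log2 difference was 0.04 (SE 0.13, adjusted p = 0.949). Per3 (chr4:151043278-151045353) read 127, 133 and 188 in CtrlCre and 142, 174 and 127 in Cpt1bcKO. Here too CtrlCre replicate 3 was highest, and Cpt1bcKO replicate 2 stood highest in its own genotype, as it did at Per1. The log2 difference at Per3 was -0.01 (SE 0.14, adjusted p = 0.995).

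Cry1 and Cry2, which code for the partners of the PER proteins, varied less. At Cry1 (chr10:85183390-85185948) values were 285, 323 and 314 in CtrlCre and 294, 289 and 336 in Cpt1bcKO. No library stood apart, and the log2 difference was -0.01 (SE 0.10, adjusted p = 0.993). At Cry2 (chr2:92432668-92434832) values were 149, 107 and 155 in CtrlCre and 145, 144 and 150 in Cpt1bcKO. A single library, CtrlCre replicate 2, was low, and the other 5 lay between 144 and 155. The log2 difference at Cry2 was 0.11 (SE 0.13, adjusted p = 0.807), and without CtrlCre replicate 2 it was -0.05.

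Nr1d1 and Nr1d2 code for the related repressors REV-ERBα and REV-ERBβ, and their peaks were at opposite ends in spread. Nr1d1 (chr11:98771928-98776338) read 375, 367 and 365 in CtrlCre and 369, 374 and 347 in Cpt1bcKO. The highest value was 1.08 times the lowest, and the log2 difference was -0.02 (SE 0.09, adjusted p = 0.964, 95% interval -0.21 to 0.17). Nr1d2 (chr14:18237047-18239878) read 138, 91 and 181 in CtrlCre and 146, 116 and 120 in Cpt1bcKO. Again CtrlCre replicate 3 was highest and CtrlCre replicate 2 lowest, a 1.99-fold range, and the log2 difference was -0.05 (SE 0.17, adjusted p = 0.951). The second, intronic Nr1d2 peak read 20, 16 and 38 in CtrlCre and 27, 21 and 9 in Cpt1bcKO, with the same order of the control libraries. Its recovered counts were between 7 and 40 per library, and the log2 difference of -0.39 (SE 0.41, adjusted p = 0.779) had a 95% interval from -1.25 to 0.46.

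Dbp, an output gene of the loop that codes for a PAR bZIP factor, had the largest difference among the promoter peaks. The Dbp peak (chr7:45703693-45708910) read 422, 353 and 442 in CtrlCre and 328, 363 and 337 in Cpt1bcKO. The genotypes overlapped, as CtrlCre replicate 2 lay below Cpt1bcKO replicate 2. The means were 406 ± 46.7 and 343 ± 18.2, and the log2 difference was -0.24 (SE 0.10, unadjusted p = 0.0282, adjusted p = 0.300), which does not pass the correction over all tested peaks. The adjusted p over the alternatives tried lay between 0.0847 and 0.616. Among 9317 peaks of other genes with a mean of at least 50, the values most like those of Dbp over the 6 libraries were at Trip6 (r = 0.980), Mier1 (r = 0.975) and Traf3ip2 (r = 0.970). These correlations share 6 libraries and were picked from many, 16 peaks reached 0.95, and they are a description only.

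**Figure D3:**
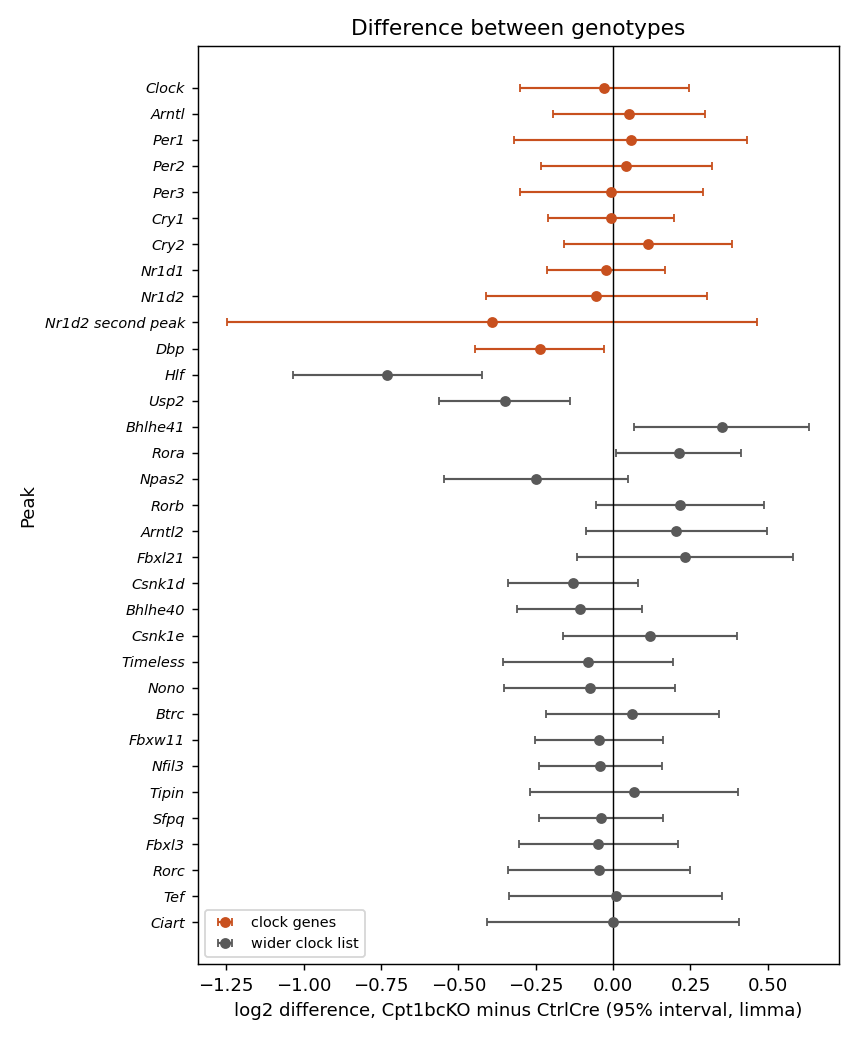
Log2 difference in H3K4me3, Cpt1bcKO minus CtrlCre, with 95% intervals from limma (n = 3 libraries per genotype) for the 11 clock gene peaks and for 22 further clock-related genes. Most intervals cover 0, Hlf lies furthest to the lower side among the promoter peaks, and the interval of Dbp ends just under 0 before any correction.

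The spread within genotypes was read as the residual SD of log2 values around the genotype means, set beside the SD of the limma trend at the same level. At Per1 the residual SD was 0.45 beside a trend of 0.12, a ratio of 3.72, and only 15 of 15039 tested peaks, 0.0997% and Per1 among them, had a ratio at least as high. Nr1d2 followed with a ratio of 2.43, reached by 0.672% of tested peaks. Clock had 1.99 (2.25%), Per3 1.87 (3.17%), Per2 1.82 (3.66%) and the second Nr1d2 peak 1.56 (8.27%). All 3 Per genes and Clock were thus among the more variable peaks of their level, Per2 and Per3 only with CtrlCre replicate 3 included. Cry2 was above the trend too, at 1.40 (13.8%), but under 1.5. Dbp (1.08), Arntl (0.98) and Cry1 (0.87) were at or near the trend. Nr1d1 was among the least variable, as 97.3% of tested peaks had a ratio at least as high as its 0.35. The median ratio was 1.56 over the clock gene peaks and 0.93 over all tested peaks. It was 1.55 over the CM marker peaks and 1.52 over the peaks of clock output genes in heart. At least 2 times the trend was reached by 2 clock gene peaks, Per1 and Nr1d2, beside 2.10% of tested peaks. Both thresholds, 1.5 and 2, were chosen after the values had been seen.

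Counting error was computed as if 1 recovered count were 1 read, which the sources used here do not state. So computed, it was smaller than this spread at Per1, where it amounts to 0.09 on the log2 scale. At Nr1d2 it amounts to 0.14 beside a residual SD of 0.37. At Nr1d1 the residual SD of 0.04 was under the counting error of 0.08. The recovered counts at Per1 were 390, 95 and 519 in CtrlCre and 297, 653 and 389 in Cpt1bcKO, so the lowest value rests on the smallest count. Without that library, CtrlCre replicate 2, the ratio at Per1 was 2.89, and without CtrlCre replicate 3 it was 2.78. The number of clock gene peaks at 1.5 times the trend or more was 3 without CtrlCre replicate 3 and 6 or 7 without any other single library, so 1 library carries much of the count. Without CtrlCre replicate 3 the ratio was 0.63 at Per2, 1.27 at Per3 and 1.34 at the second Nr1d2 peak. It stayed at 2.22 at Clock and 1.78 at Nr1d2.

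**Figure D4:**
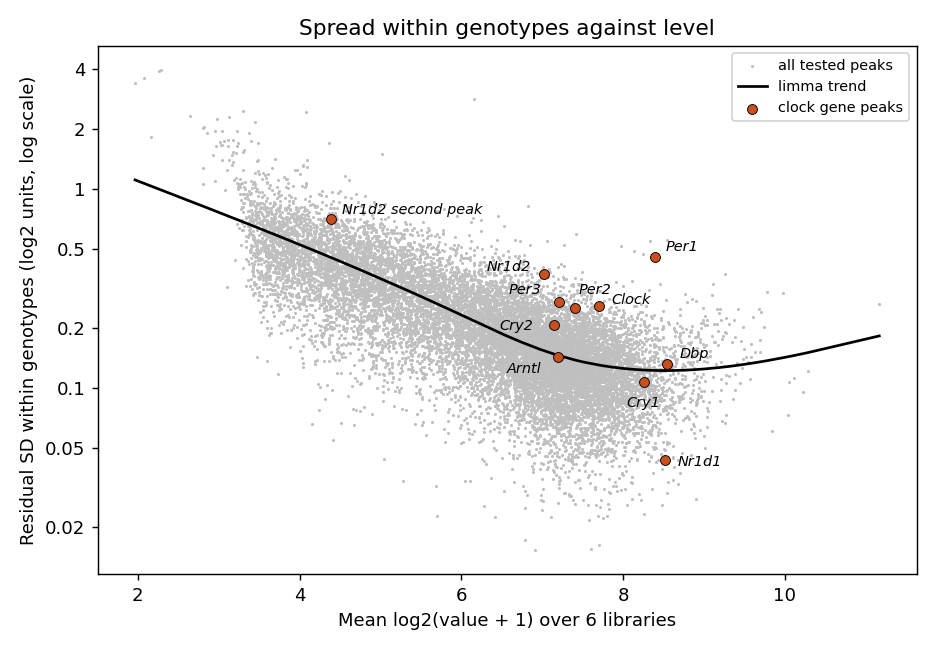
Residual SD of log2 values within genotypes (log scale) against the mean log2 value over 6 libraries for all 15039 tested peaks (grey), with the limma trend (line) and the 11 clock gene peaks (orange). Per1 lies far above the trend, Nr1d2, Clock, Per2 and Per3 lie above it, and Nr1d1 lies below it.

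Among the controls, CtrlCre replicate 3 had the highest value at 7 of 11 peaks (Per1, Per2, Per3, Cry2, both Nr1d2 peaks and Dbp) and the lowest at Arntl and Nr1d1. CtrlCre replicate 2 had the lowest value at 6 of 11 peaks and the highest at Clock and Cry1. In Cpt1bcKO no library stood out in this way. Replicate 2 had the highest value at 4 peaks (Per1, Per3, Nr1d1 and Dbp) and the lowest at 5 (Clock, Arntl, Cry1, Cry2 and Nr1d2), replicate 3 the highest at 4 and the lowest at 5, and replicate 1 the highest at 3 and the lowest at 1. Summed over the 11 peaks, the libraries read 2334, 2157 and 2706 in CtrlCre and 2339, 2379 and 2260 in Cpt1bcKO. The CtrlCre sums ran further apart than those of Cpt1bcKO, a difference in spread that was not tested.

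A ratio of 2 peaks within 1 library does not depend on the depth scaling. The Per1 to Clock ratio was 1.76, 0.863 and 2.54 in CtrlCre and 1.55, 2.54 and 1.18 in Cpt1bcKO, a 2.94-fold range. It was highest in CtrlCre replicate 3 and Cpt1bcKO replicate 2, 1 library of each genotype, and lowest in CtrlCre replicate 2. The Per1 to Arntl ratio, between a gene switched on by the pair and the gene of an activator, was 2.14, 1.46 and 3.90 in CtrlCre and 2.18, 3.16 and 1.79 in Cpt1bcKO, in the same order of libraries within each genotype. Per1 to Nr1d1, both targets of the pair, ran from 0.602 to 1.34 with that same order. These ratios all have Per1 on top, and the values of Per1 alone run in that order within each genotype. The shared order is therefore largely set by Per1 and is no separate result.

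**Figure D5:**
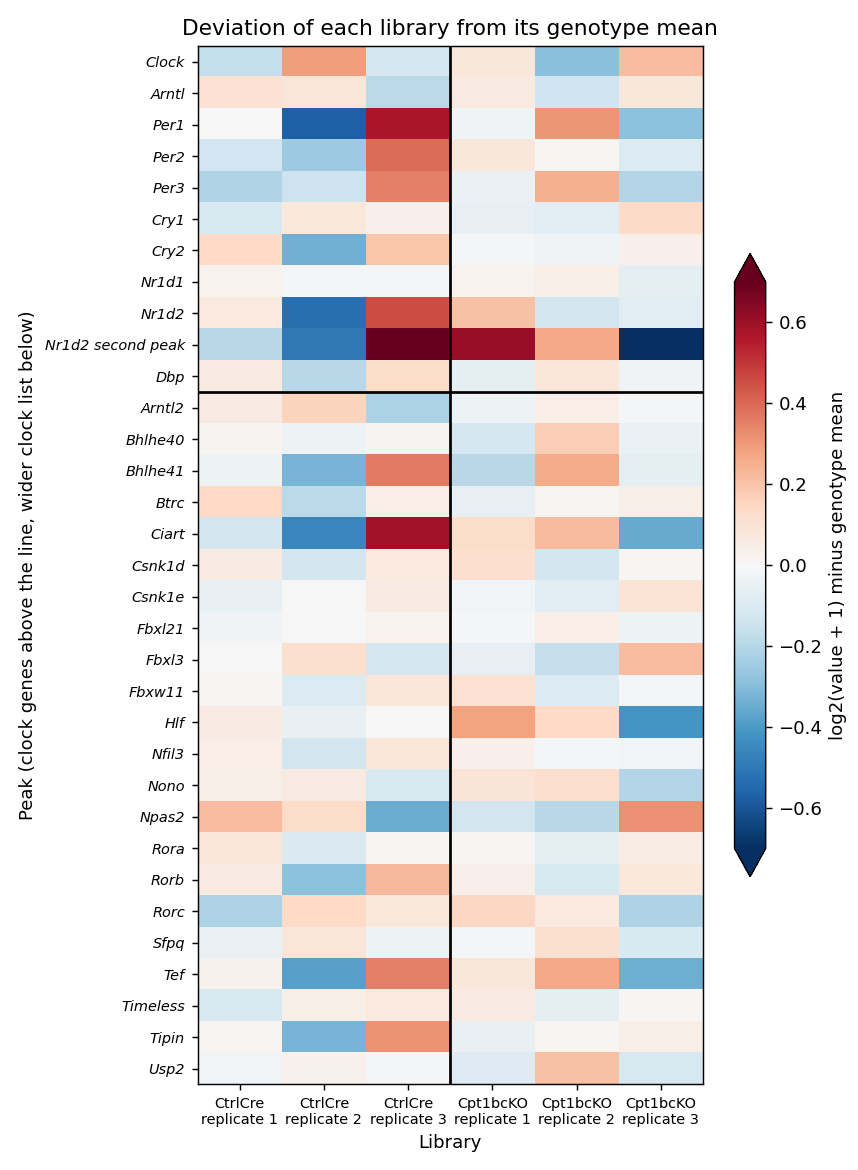
Deviation of log2(value + 1) in each library from the mean of its genotype, for the 11 clock gene peaks (above the line) and 22 further clock-related genes (below it), in log2 units (red above the mean, blue below; values past 0.7 take the end colour). CtrlCre replicate 3 is red and CtrlCre replicate 2 blue at Per1, Per2, Nr1d2 and Ciart, and Clock, Arntl and Npas2 run the other way in CtrlCre replicate 3.

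Other measures moved with these libraries. The CM markers, summed over 9 peaks of 8 genes, read 7325, 6661 and 8107 in CtrlCre and 6371, 7200 and 4973 in Cpt1bcKO, so that CtrlCre replicate 3 was highest, CtrlCre replicate 2 lowest among controls and Cpt1bcKO replicate 2 highest in its genotype, as at Per1. Of these 9 peaks, 0 were called between genotypes in limma and 4 were lower in Cpt1bcKO at an unadjusted p under 0.05, beside 6.98% of all tested peaks, with a median log2 difference of -0.28. Of markers of other cells, Kdr of endothelium read 39, 91 and 64 in CtrlCre and 31, 45 and 51 in Cpt1bcKO, Pdgfra of fibroblasts lay between 56 and 69, the sum of the mural genes Cspg4 and Myh11 ran from 22 to 98 and all 4 blood and immune markers were without a peak. CtrlCre replicate 2, highest for Kdr and for the mural sum, was also the shallowest library, and CtrlCre replicate 3 carried the Y-linked peak. The part of depth, of the Y-linked difference and of cell make-up in the spread at the clock genes was not tested, and the hour of collection, which the sources used here do not give, cannot be told apart from the library.

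Among 22 further genes of the clock, all with a tested peak, 1 fell in Cpt1bcKO and none rose at an adjusted p of 0.05, beside 1.82% of tested peaks lower and 1.11% higher. At an unadjusted p under 0.05, 2 were higher (Bhlhe41 and Rora), beside 5.84% of all tested peaks, and 2 lower (Hlf and Usp2), beside 6.98%. The median log2 difference was -0.04 beside 0.01 over all tested peaks. The gene that fell was Hlf, which codes for a PAR bZIP factor of the same family as DBP. The Hlf peak (chr11:90388824-90391619) read 165, 153 and 158 in CtrlCre and 116, 105 and 71 in Cpt1bcKO. The genotypes did not overlap, and the log2 difference was -0.73 (SE 0.15, adjusted p = 0.00559), a call that was lost when limma was fitted without the variance trend (adjusted p = 0.193). Without Cpt1bcKO replicate 3, which was lowest at Hlf and for the CM markers, the difference was -0.52 (adjusted p = 0.0456). The third family member, Tef, read 124, 93 and 155 in CtrlCre and 129, 147 and 96 in Cpt1bcKO, with a log2 difference of 0.01 (SE 0.17, adjusted p = 0.993), and no difference between the 3 family members was tested.

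The wider list as a whole had a median ratio of 0.91 to the trend, beside 0.93 over all tested peaks, and 5 of its 22 peaks reached 1.5, beside 10.1% of all tested peaks. The following genes were chosen after their values had been seen. Ciart, which codes for a repressor of the CLOCK and ARNTL pair, had the highest ratio of the list, 2.57, and read 97, 77 and 160 in CtrlCre and 116, 124 and 83 in Cpt1bcKO. Bhlhe41, another repressor that binds E-boxes, had a ratio of 2.41 and read 374, 305 and 493 in CtrlCre and 428, 585 and 467 in Cpt1bcKO, and Tef had 2.16. At all 3, CtrlCre replicate 3 was the highest and CtrlCre replicate 2 the lowest control, and Cpt1bcKO replicate 2 the highest of its genotype. That order was seen at Per1 and also in the sum of the CM markers. Npas2, which codes for a stand-in for CLOCK, had a ratio of 2.10 and ran the other way, with 210, 198 and 142 in CtrlCre and 139, 133 and 190 in Cpt1bcKO. CtrlCre replicate 3 was the lowest control and Cpt1bcKO replicate 2 the lowest of its genotype there, as at Arntl. Hlf, the remaining peak of the list past 1.5, had a ratio of 1.68 and followed neither order.

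Genes for chromatin proteins that work with the clock factors, among them the H3K4 methyltransferase gene Kmt2a, the H3K4 demethylase gene Kdm5a and the acetyltransferase gene Ep300, had 0 of 8 peaks called by either limma fit (2.93% of all tested peaks) and 1 higher at an unadjusted p under 0.05 (5.84% of all tested peaks). That was Ep300, which read 256, 267 and 250 in CtrlCre and 288, 296 and 318 in Cpt1bcKO (log2 difference 0.22, SE 0.09, adjusted p = 0.299). Kmt2a had a log2 difference of 0.17 (SE 0.11, adjusted p = 0.559) and Kdm5a one of 0.10 (SE 0.10, adjusted p = 0.749). The median of the list was 0.10, beside 0.01 over all tested peaks. Hdac3 was the gene of this list without a peak assigned by name.

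Genes described as outputs of the clock in heart had 0 of 7 peaks called by either limma fit (2.93% of all tested peaks), with 2 lower at an unadjusted p under 0.05 (6.98% of all tested peaks) and a median log2 difference of -0.16, beside 0.01 over all tested peaks. Kcnh2, which codes for a potassium channel, read 192, 214 and 256 in CtrlCre and 183, 168 and 158 in Cpt1bcKO (log2 difference -0.37, SE 0.11, adjusted p = 0.0905). Pik3r1, which codes for a regulatory subunit of phosphoinositide 3-kinase, had a log2 difference of -0.23 (SE 0.11, adjusted p = 0.375), and Dgat2, which codes for an enzyme of triglyceride synthesis, one of 0.25 (SE 0.13, adjusted p = 0.445). Summed over the list, the libraries read 2186, 1900 and 2470 in CtrlCre and 2179, 2164 and 1838 in Cpt1bcKO. CtrlCre replicate 3 was above its genotype mean at 7 of these 7 peaks and CtrlCre replicate 2 at 0 of 7. Bdh1, also of this list of 8 genes, had no peak assigned by name.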

How the data were processed

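H3K4me3 was measured in sorted CM nuclei, and the 6 input libraries were not analysed here. The authors trimmed reads with Trimmomatic (0.39), aligned them to mm10 with STAR (2.6.1d), removed duplicates with Picard (2.21.7), called peaks against input with MUSIC, merged them over libraries and assigned genes by the nearest promoter. The deposited values are counts per merged peak divided by size factors of DESeq2 (1.26.0) by the authors and rounded to whole numbers (a score here, since they are not raw), with unrounded genotype means as a deposited signal column. The authors' columns of fold changes and p-values were not used.

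Peaks with a mean of at least 10 were tested (15039, leaving out 809) with limma (3.58.1, R 4.3.3), lmFit and eBayes with trend on log2(value + 1), genotype alone, two-sided, with Benjamini–Hochberg adjustment. Fold changes on this scale understate those of low peaks. Whole counts were recovered from the rounded values and the means, with a single solution for 15848 of 15848 peaks, and served for depth, counting error and an added fit with limma-voom. Counting errors cover counting only and take 1 recovered count as 1 read. Transcript starts come from GENCODE vM21 and promoter windows from RefSeq, both on this build. The limma fit was tested on simulated counts with 200 of 15039 peaks changed. It called 68% of changes of 1 log2 unit and 81% of changes of 1.5 units, and 6.88% of its calls were false. Groups and replicate numbers come from sample titles. The clock genes and gene lists were chosen with earlier results of these data known. Named are all clock gene peaks and, per list, the genes past an adjusted p of 0.05 or else the 3 with the smallest p, with exceptions stated.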

Additional observations from a re-analysis of the deposited data

How the results depend on the processing

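No clock gene peak was called under any alternative. These were another pseudocount or filter, quantile normalization, median centring, no variance trend and the replicate number as a block. Each library was also left out in turn, and limma-voom was fitted to recovered counts. Assignment by annotated starts kept 10 of the clock gene peaks and added none, so with the same fit it could not add a call. Over all tested peaks the number called was 441, 43 without a variance trend and 229 to 431 with 1 library left out. Clock gene peaks at an unadjusted p under 0.05 numbered 0 without a trend, 0 with the block and 0 to 2 with 1 library left out, where the 2, without CtrlCre replicate 2, were Dbp and Nr1d2. Peaks called in the wider list numbered 2 with quantile normalization (Hlf and Usp2), 0 without a trend and 1 to 2 with 1 library left out. The count of clock gene peaks at 1.5 times the trend or more was 3 to 7 with 1 library left out. It was 5 with a mean of at least 50, which leaves out the second Nr1d2 peak. Without a variance trend it was 4, as Clock (1.47) and Per2 (1.43) then lay under 1.5. Hlf, at -0.73, had an adjusted p of 0.193 without a trend. The cause of these changes was not tested.

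Directions at the clock genes are not fixed by these data. The sign of the log2 difference changed between fits at every clock gene peak except that of Dbp. At Dbp it stayed negative, but no fit passed an adjusted p of 0.05 in limma, so no direction is established there either. With limma-voom the log2 difference was 0.034 at Clock, -0.030 at Per1, -0.026 at Per2 and 0.0040 at Cry1. With 1 library left out it ran from -0.13 to 0.12 at Clock, -0.042 to 0.12 at Arntl, -0.23 to 0.34 at Per1, -0.084 to 0.24 at Per2, -0.13 to 0.17 at Per3, -0.074 to 0.034 at Cry1, -0.054 to 0.21 at Cry2, -0.044 to 0.0098 at Nr1d1, -0.32 to 0.18 at Nr1d2, -0.70 to 0.045 at the second Nr1d2 peak and -0.33 to -0.17 at Dbp.

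Same-numbered libraries did not deviate together (correlations 0.0759, -0.0812 and 0.105), although both libraries numbered 3 carried the Y-linked peak. The labels give no pairing, and the samples were taken to share only a number. With the replicate block 370 peaks were called, and 0 clock gene peaks. Limma-voom and the alternatives for the spread count, the level per kilobase and Hlf were added after the data had been seen. With 3 libraries per genotype, single outlying libraries were not tested.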
